A study of Homo sapiens with 5 samples.

Results

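Of the genes with poly(A) sites in this series, 8 are described here site by site and library by library: SIX3, LINC01833, OTX2, NES, MAP2, TUBB3, CYP26A1 and FRZB. They held 14 of the 29996 poly(A) sites and were 8 of the 12693 genes with a site, found by gene name. The genes were selected from their levels in these same libraries, as neural and forebrain-related genes whose reads differed between clones, so their differences in level, with the fold changes, standard errors and counting intervals given below, are descriptions from which no test is read. NES and TUBB3 turned out to vary little. The libraries came from CFIm25 KO and control lines of H9, a human embryonic stem cell line cultured in mTeSR medium, and each sequenced the 3' ends of poly(A)+ RNA. There were 3 CFIm25 KO libraries (CFIm25 KO 1, 2 and 3) and 2 control libraries (control 1 and 2, genotype "control KO" in the labels). CFIm25, the product of NUDT21, is the subunit of the cleavage factor CFIm that binds RNA upstream of poly(A) sites. The labels give CRISPR-Cas9 as the technique for all lines, with no further treatment, and per the study both control clones were given only the empty vector, so that only the CFIm25 KO lines were edited. The study also states that each CFIm25 KO line grew from a single cell and kept a small amount of CFIm25 shortened at its N-terminus, so the label names the lines and does not mean a null mutation.

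SIX3 and OTX2 are homeobox transcription factors needed for the anterior part of the neural plate, which forms the forebrain and the eyes, and LINC01833 is a long noncoding RNA transcribed from the strand opposite to SIX3 beside it. In pluripotent cells OTX2 is also expressed, where it takes part in the passage from the naive to the primed state in mice. Anterior neural tissue arises where posteriorising WNT and retinoic acid signals are kept low. FRZB encodes a secreted WNT antagonist, and CYP26A1 encodes the enzyme that breaks down retinoic acid and is itself induced by it. NES (nestin), MAP2 and TUBB3 encode cytoskeletal proteins used as markers of neural progenitors (NES) and neurons (MAP2 and TUBB3).

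RefSeq promoter sequences, 250 bases before to 50 bases after a transcript start (GRCh38.p14), were found for 7 of the 8 genes, in 13 entries. They were searched on both strands for 4 motifs: the retinoic acid element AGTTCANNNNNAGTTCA (a direct repeat spaced by 5 bases), the OTX motif TAATCC, the TATA box TATAAA and the octamer ATGCAAAT. Matches lay in 2 entries only, 1 of CYP26A1, a textbook target of retinoic acid, and 1 of MAP2. Both genes had their highest level in CFIm25 KO 2, as did LINC01833, OTX2 and FRZB, whose entries held no match. The 2 entries with a match, of CYP26A1 and of MAP2, are printed. The first lies at chr10:93073643-93073942 on the plus strand and the second at chr2:209579082-209579381 on the plus strand, and capitals mark the motif matches.
CYP26A1: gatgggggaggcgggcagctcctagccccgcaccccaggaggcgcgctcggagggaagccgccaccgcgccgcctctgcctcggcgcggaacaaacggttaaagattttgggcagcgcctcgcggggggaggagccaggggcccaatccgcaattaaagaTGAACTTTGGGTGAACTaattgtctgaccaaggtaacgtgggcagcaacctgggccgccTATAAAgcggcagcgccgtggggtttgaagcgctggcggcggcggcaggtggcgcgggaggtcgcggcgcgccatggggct
MAP2: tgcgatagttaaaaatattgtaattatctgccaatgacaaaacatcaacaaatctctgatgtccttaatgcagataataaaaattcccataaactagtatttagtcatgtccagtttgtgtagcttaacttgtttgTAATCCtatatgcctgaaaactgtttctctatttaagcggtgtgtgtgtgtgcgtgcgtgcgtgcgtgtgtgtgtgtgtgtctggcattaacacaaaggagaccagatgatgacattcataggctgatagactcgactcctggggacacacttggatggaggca
In the CYP26A1 entry the capitals are the retinoic acid element on the minus strand, read as TGAACTNNNNNTGAACT, which begins 90 bases before the start, and a TATA box that begins 31 bases before it. In the MAP2 entry they are an OTX motif 114 bases before the start. Of all 35116 promoter entries, 0.0114% held the retinoic acid element in the spelling searched (4 entries), 11.5% the TATA box, 6.36% the OTX motif and 1.77% the octamer. Only that 1 spelling of the element was searched, so 0.0114% is not the share of retinoic acid elements in general. It is the spelling that the CYP26A1 promoter itself carries, so nothing is read from the match in CYP26A1. A match is a description of the letters and was not tested for binding.

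The libraries held 7783102, 7009418 and 5684809 reads in CFIm25 KO 1, 2 and 3, and 5203908 and 5243225 in control 1 and 2. Levels are given as CPM, the reads of a gene relative to the library total after TMM scaling in edgeR, and a 3' end count does not depend on transcript length. NUDT21 was at 131 ± 2.20 CPM in CFIm25 KO (SD, n = 3) and 222 ± 1.02 CPM in control (SD, n = 2), an edgeR log2 fold change of -0.77 (SE 0.112, adjusted p = 0.0325), although reads at its 3' end say nothing of the edit near its start codon. The library CFIm25 KO 2 stood apart: it was at least 1 log2 unit above every other library in 47 genes and below every other in 48, against 1 and 7 genes for CFIm25 KO 1, 31 and 23 for CFIm25 KO 3, 0 and 13 for control 1, and 1 and 10 for control 2. Levels of the 8 genes are therefore given by library.

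The 3 genes of the forebrain regulators differed between clones more than between the controls. SIX3 (ENSG00000138083) had 42, 709 and 6 reads in CFIm25 KO 1, 2 and 3, which is 5.89, 116 and 1.20 CPM, against 4 and 5 reads, or 0.832 and 1.07 CPM, in control. CFIm25 KO 2 was far above the rest, CFIm25 KO 1 was between, and CFIm25 KO 3 was at the level of the controls. Against the summed controls the ratio of SIX3 was 6.22 in CFIm25 KO 1 (95% exact counting interval 2.98 to 14.5), 122 in CFIm25 KO 2 (64.1 to 269) and 1.27 in CFIm25 KO 3 (0.372 to 3.997). In these bulk samples a smaller share of SIX3-expressing cells and less RNA per cell cannot be told apart. LINC01833 (ENSG00000259439) had 49, 424 and 0 reads in CFIm25 KO 1, 2 and 3, or 6.87, 69.4 and 0 CPM, against 1 and 5 reads, or 0.208 and 1.07 CPM, in control. Relative to the floor of 3 reads that a count of 0 in 1 library allows, 0.602 CPM, CFIm25 KO 2 was at least 115-fold higher than CFIm25 KO 3. Its ratio to the summed controls was 10.9 in CFIm25 KO 1 (4.66 to 31.1) and 110 in CFIm25 KO 2 (50.05 to 301), the same order of clones as for SIX3, and in CFIm25 KO 3 the upper bound was 1.62.

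OTX2 (ENSG00000165588) had 339, 836 and 57 reads in CFIm25 KO 1, 2 and 3, or 47.5, 137 and 11.4 CPM, against 132 and 110 reads, or 27.5 and 23.4 CPM, in control. Unlike SIX3, it was well detected in the controls, and the CFIm25 KO clones lay on both sides of them. The ratio to the summed controls was 1.87 (1.58 to 2.21) in CFIm25 KO 1, 5.37 (4.65 to 6.22) in CFIm25 KO 2 and 0.449 (0.330 to 0.601) in CFIm25 KO 3. These intervals cover counting error only, since the reads carry no molecular identifiers and each clone has 1 library.

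Of the 2 genes that act on anterior patterning signals, both followed the same order. CYP26A1 (ENSG00000095596), whose enzyme breaks down retinoic acid, had 12.3, 66.8 and 1.81 CPM in CFIm25 KO 1, 2 and 3 against 2.91 and 3.20 CPM in control, from 88, 408 and 9 reads against 14 and 15. Its ratio to the summed controls was 4.04 (2.63 to 6.38), 21.9 (15.0 to 33.1) and 0.592 (0.246 to 1.28) in CFIm25 KO 1, 2 and 3. FRZB (ENSG00000162998), the WNT antagonist, had 2.38, 36.3 and 0.803 CPM in CFIm25 KO 1, 2 and 3 against 1.25 and 1.07 CPM in control, from 17, 222 and 4 reads against 6 and 5. CFIm25 KO 2 was the highest, with a ratio of 31.4 (17.2 to 63.8), followed by CFIm25 KO 1 with 2.06 (0.910 to 4.86) and CFIm25 KO 3 with 0.693 (0.161 to 2.34).

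The 3 cytoskeletal markers did not move alike. MAP2 (ENSG00000078018), a microtubule-associated protein of dendrites, had 20.6, 109 and 7.22 CPM in CFIm25 KO 1, 2 and 3 against 10.4 and 12.1 CPM in control, with ratios to the summed controls of 1.83 (1.42 to 2.37), 9.65 (7.85 to 11.9) and 0.641 (0.427 to 0.943). It thus had the order of OTX2, with CFIm25 KO 3 below the controls. TUBB3 (ENSG00000258947), a neuronal beta-tubulin, had 46.8, 61.0 and 84.5 CPM in CFIm25 KO 1, 2 and 3 against 54.7 and 50.9 CPM in control. Its highest library was CFIm25 KO 3, the one lowest in MAP2, and its groups overlapped. NES (ENSG00000132688), the progenitor intermediate filament, had 90.9, 91.6 and 98.3 CPM in CFIm25 KO 1, 2 and 3 against 77.0 and 67.8 CPM in control. All 3 CFIm25 KO libraries were above both controls, by a small amount that was nearly the same in each clone (ratios 1.26, 1.27 and 1.36).

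**Figure D1:**
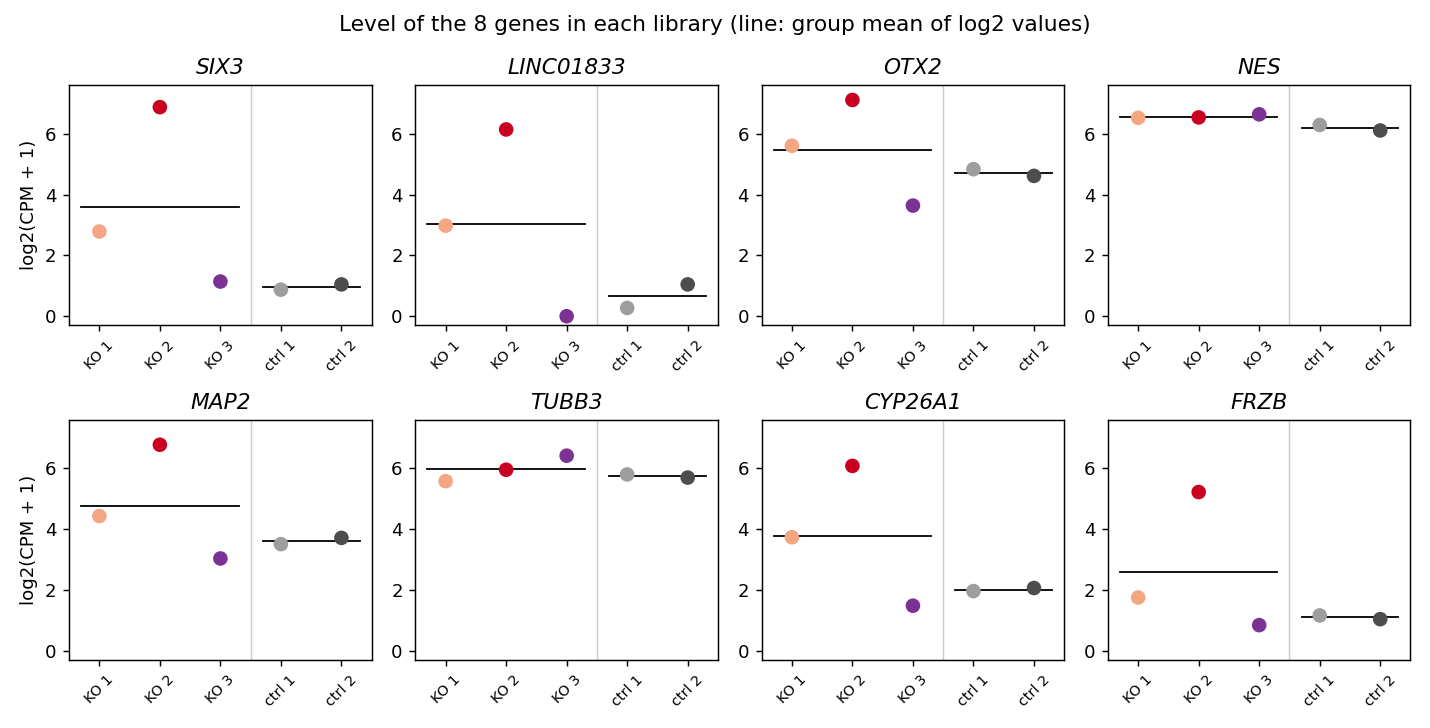
Level of each of the 8 genes as log2(CPM + 1) in CFIm25 KO 1, 2 and 3 (left) and control 1 and 2 (right), with a line at each group's mean of the log2 values. CFIm25 KO 2 is the highest library in 6 panels, and in the panels of NES and TUBB3 all 5 libraries lie close together.

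**Figure D2:**
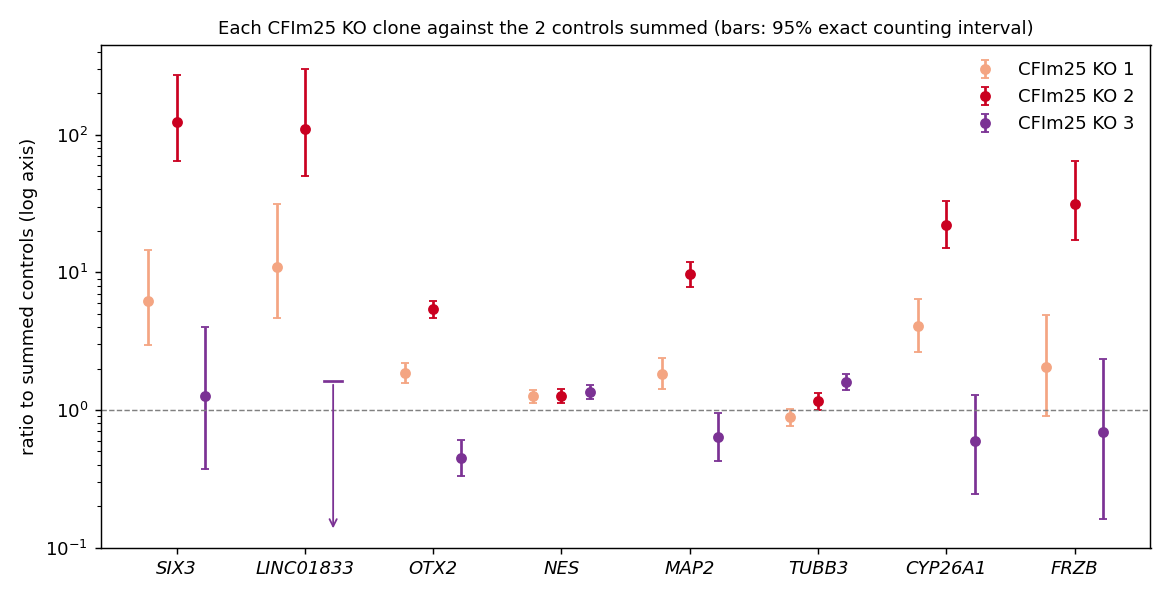
Ratio of each CFIm25 KO clone to the 2 controls summed, on a log axis, with 95% exact counting intervals (the arrow for LINC01833 in CFIm25 KO 3 starts at the upper bound of 1.62, since no read was counted). The CFIm25 KO 2 points of SIX3 and LINC01833 lie near 122 and 110, whereas the points of NES lie between 1.26 and 1.36.

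The fit over all genes shows how the group comparison averages over these clones. The edgeR log2 fold change of CFIm25 KO over control was 5.41 for SIX3 (SE 3.28), 5.29 for LINC01833 (SE 3.33), 3.49 for FRZB (SE 2.53), 3.14 for CYP26A1 (SE 2.02), 2.02 for MAP2 (SE 1.55), 1.36 for OTX2 (SE 1.26), 0.37 for NES (SE 0.131) and 0.27 for TUBB3 (SE 0.225). The standard errors of the 6 genes with the widest spread between clones were at least 1.26, and those of NES and TUBB3 at most 0.225. All 8 genes passed the count filter, and of these SIX3, LINC01833 and FRZB had fewer than 10 reads in both controls, so they passed through the CFIm25 KO libraries in which they are high. With the threshold at an adjusted p of 0.05, edgeR called 0 of the 8 (1 had an unadjusted p under 0.05, and DESeq2 called 0), beside 0.0591% of all 11841 genes tested (7 genes). At the unadjusted threshold the share of all genes was 7.13% (844 genes). Since the 8 genes were selected on these levels, nothing is read from their counts. In 2 of the 8 genes, SIX3 and NES, every CFIm25 KO library was above both controls, beside 12.0% of all genes, although SIX3 had only 6 reads in CFIm25 KO 3 against 4 and 5 in control.

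The spread between libraries was the property the genes were selected on. The highest library was at least 4-fold above the lowest (0.5 reads added) in 6 of the 8 genes, beside 3.67% of all genes tested, and CFIm25 KO 2 was the highest library in the same 6, beside 24.9% of all genes. Since the genes were taken from these levels, nothing is read from either share. Without CFIm25 KO 2 the 4-fold spread remained in 4 of them, SIX3 (6.36-fold), LINC01833, OTX2 (4.13-fold) and CYP26A1 (6.51-fold). It was 2.82-fold in MAP2 and 2.72-fold in FRZB. Of the genes tested without that library, 1.87% had a 4-fold spread. SIX3, LINC01833 and FRZB no longer passed the count filter there, so that share does not cover them and is not a background for them. Without CFIm25 KO 2, OTX2 had a log2 fold change of 0.25, MAP2 0.34 and CYP26A1 1.27.

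The genes lay on chromosomes 1, 2, 10, 14 and 16, and 4 of the 8 were on chromosome 2 (SIX3, LINC01833, MAP2 and FRZB), beside 6.58% of the genes tested. The median log2 ratio to the mean of the controls over the 779 genes of chromosome 2 was -0.01 in CFIm25 KO 1, -0.01 in CFIm25 KO 2 and 0.00 in CFIm25 KO 3, and over all genes it was 0.00 in each. A median over 779 genes does not describe a short stretch of the chromosome, and no such stretch was tested. Of the 10 other genes furthest above the rest in CFIm25 KO 2, named below, EPHA4, PKDCC and LRP2 also lay on chromosome 2.

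Of the genes within 1 Mb of SIX3, those beside it had most of their reads in CFIm25 KO 2. SIX3-AS1, a noncoding RNA antisense to SIX3 with a site 5.53 kb from the nearest SIX3 site, had 1, 55 and 0 reads in CFIm25 KO 1, 2 and 3 against 0 and 2 in control and did not pass the count filter. LINC01833 has its nearest site 14.6 kb away. CAMKMT, SRBD1, PREPL and PPM1B lay 173 to 712 kb away with log2 fold changes between -0.06 and 0.46, and AC019129.2, 778 kb away, had 11, 9 and 12 reads in CFIm25 KO against 7 and 2 in control. SIX3-AS1 and SIX3 lie on opposite strands, and the site table is strand-specific. Around OTX2, the genes TMEM260, EXOC5, AP5M1, PELI2 and NAA30 had log2 fold changes between -0.29 and 0.39. In the 2 nearest, TMEM260 had 10.4, 11.3 and 10.2 CPM in CFIm25 KO 1, 2 and 3 against 9.36 and 12.4 CPM in control, and EXOC5 had 30.3, 24.5 and 26.5 CPM against 30.6 and 27.7 CPM.

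Most members end at a single main site. SIX3 had sites at positions 44945685 and 44946068 of chromosome 2 (GRCh38, plus strand), 383 bases apart, the second 3 bases from the RefSeq end of the gene. The first held 9.52% of the SIX3 reads in CFIm25 KO 1, 18.6% in CFIm25 KO 2 (Wilson interval 15.9% to 21.6%) and 33.3% in CFIm25 KO 3 (9.68% to 70%), against 25% in control 1 (4.56% to 69.9%) and 0% in control 2 (0 to 43.5%), so at these depths no difference was detectable. LINC01833 had 2 sites 2634 bases apart in an intron, both highest in CFIm25 KO 2 (328 and 96 reads). CYP26A1 had sites 389 bases apart, and its first, at position 93077494 of chromosome 10, held 97.7%, 91.7% and 88.9% of the reads in CFIm25 KO 1, 2 and 3 against 92.9% and 93.3% in control. MAP2, TUBB3 and FRZB had 1 site each, within 5 bases of the RefSeq end for MAP2 and TUBB3 and 734 bases before it for FRZB.

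NES had 3 sites, of which the last, in the 3' UTR at position 156668764 of chromosome 1, held 90.1%, 89.5% and 81.0% of the reads in CFIm25 KO 1, 2 and 3, against 82.2% and 85.5% in control, the other 2 lying in an exon. The values of CFIm25 KO 3 and of the controls were similar, and CFIm25 KO 1 and 2 were higher. NES was the only one of the 8 genes with a pair of sites that passed the filters for the test of site use. The use of its most upstream exon site relative to the 3' UTR site differed by -0.45 on the log2 scale between CFIm25 KO and control, that is, towards the 3' UTR site in CFIm25 KO, and edgeR called 0 of this 1 pair, beside 0.211% of the 4269 pairs tested (9 pairs).

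OTX2 had sites at positions 56800832 and 56800709 of chromosome 14 (minus strand), 123 bases apart. The first held 0, 54 and 0 reads in CFIm25 KO 1, 2 and 3 against 13 and 3 in control. That was 0%, 6.46% and 0% of the OTX2 reads against 9.85% and 2.73%. The upper Wilson bound was 1.12% in CFIm25 KO 1 and 6.31% in CFIm25 KO 3. A further site, assigned to no gene in the table, lay 804 bases beyond the second and exactly at the RefSeq end of OTX2 (position 56799905). That site, noticed after its values were seen, held 31, 240 and 7 reads in CFIm25 KO 1, 2 and 3 against 24 and 13 in control and was not part of the OTX2 sums above. With it, OTX2 came to 51.9, 176 and 12.8 CPM in CFIm25 KO 1, 2 and 3 against 32.5 and 26.2 CPM in control, the same order of clones. The distal end held 8.38% of all reads in CFIm25 KO 1 (Wilson interval 5.97% to 11.6%), 22.3% in CFIm25 KO 2 (19.9% to 24.9%) and 10.9% in CFIm25 KO 3 (5.40% to 20.9%), against 15.4% in control 1 (10.6% to 21.9%) and 10.6% in control 2 (6.28% to 17.2%). The interval of CFIm25 KO 2 lay above those of CFIm25 KO 1 and control 2 and overlapped those of CFIm25 KO 3 and control 1.

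**Figure D3:**
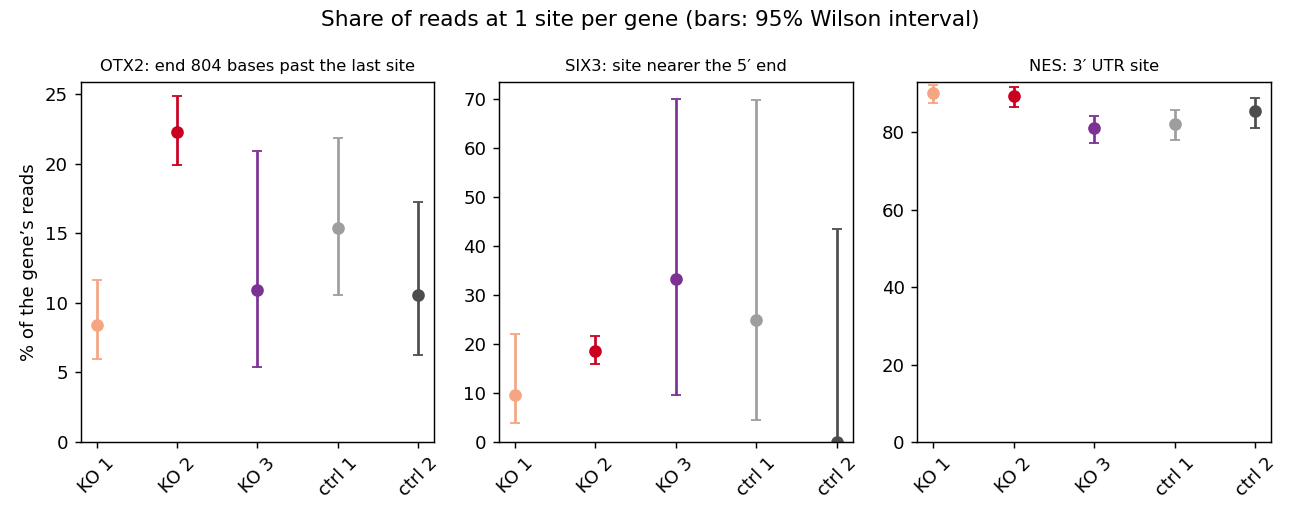
Share of a gene's reads at 1 site, in percent with 95% Wilson intervals, for the end 804 bases past the last OTX2 site, the SIX3 site nearer the 5' end and the NES 3' UTR site, in CFIm25 KO 1 to 3 and control 1 and 2. The distal OTX2 end is at 22.3% in CFIm25 KO 2 and between 8.38% and 15.4% in the other libraries.

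The deposited sites had an RPM, the authors' depth-scaled read value, of at least 5 when summed over the libraries. Without CFIm25 KO 2, 5 of the 14 sites of the 8 genes (35.7%) would have been under it, beside 10.4% of all sites. These 5 sites therefore enter the table through CFIm25 KO 2.

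Other genes resembled these profiles. By the distance between centred log2(CPM + 1) values over the 5 libraries, AHNAK was among the 5 nearest to all 6 genes with a 4-fold spread, with distances from 0.561 to OTX2 up to 2.40 to SIX3, and the next most frequent were GPC3, near 5 of them, and DLK1, IRX1, LRP2, PKDCC and SELENOP, near 3 each. AHNAK encodes a large scaffold protein and had 16.8, 63.3 and 3.61 CPM in CFIm25 KO 1, 2 and 3 against 8.11 and 5.75 CPM in control. DLK1, a Delta-like protein encoded by an imprinted gene, was the nearest to SIX3 (distance 1.77) and FRZB (1.04). IRX1, from the list of midbrain, hindbrain and spinal cord markers described below, was the nearest to OTX2 (0.535). It had 9.81, 18.5 and 1.20 CPM in CFIm25 KO 1, 2 and 3 against 3.54 and 4.05 CPM in control. Within the 8 genes, OTX2 was closest to MAP2 (distance 0.811) and SIX3 to LINC01833 (1.09). Such distances over 5 libraries are descriptions and say nothing of shared control.

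The 10 other genes that stood furthest above the rest in CFIm25 KO 2 were DLK1, EPHA4, PKDCC, GPC3, LRP2, AHNAK, APC2, CUZD1, GRM3 and FEZ1. SIX3, FRZB, LINC01833, CYP26A1 and MAP2 ranked 2, 3, 4, 6 and 7 of 11841 genes by this gap and OTX2 ranked 16, whereas NES and TUBB3 ranked 4245 and 8827. DLK1, ranked first, had 1.68, 70.8 and 1.61 CPM in CFIm25 KO 1, 2 and 3 against 1.46 and 2.56 CPM in control. GPC3, a membrane heparan sulfate proteoglycan, had 14.4, 74.4 and 8.03 CPM in CFIm25 KO against 7.70 and 12.6 CPM in control.

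**Figure D4:**
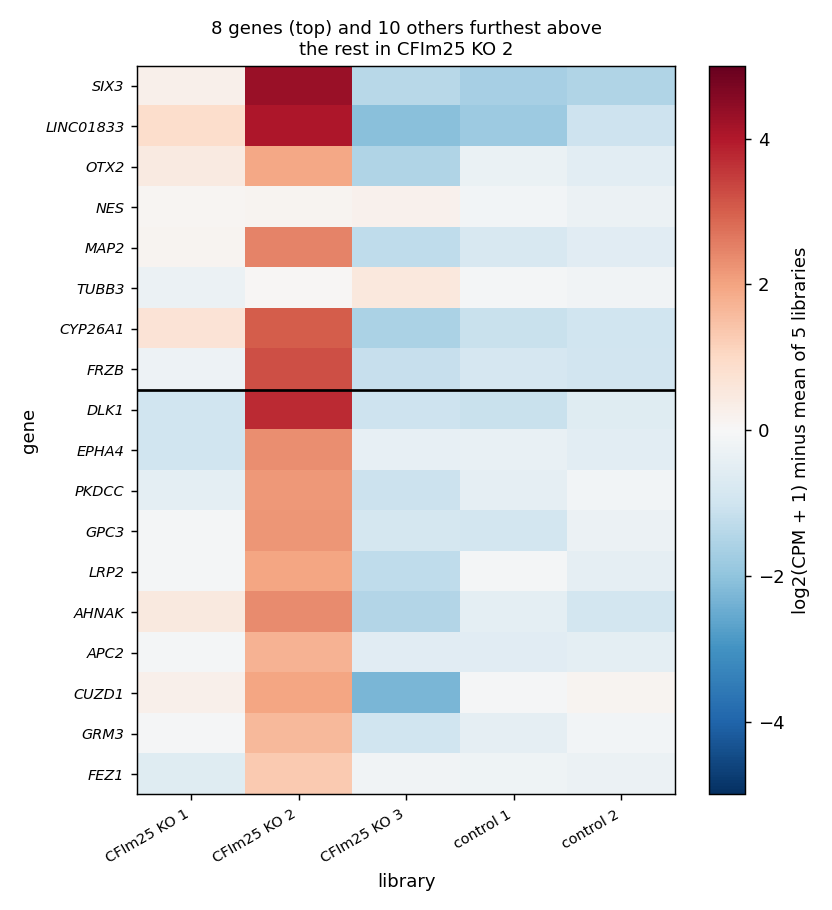
Centred log2(CPM + 1) of the 8 genes (above the line) and of the 10 other genes furthest above the rest in CFIm25 KO 2 (below it), with CFIm25 KO 1 to 3 on the left and control 1 and 2 on the right. Red marks libraries above the mean of the gene, blue those below it, and the CFIm25 KO 2 column is the reddest for all but NES and TUBB3.

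The lists below ask whether related genes shared the pattern. Of 34 forebrain and eye field factors, 9 had a site, 8 passed the filter and 0 were called by edgeR. Their median log2 fold change was 0.30 (0.01 over all genes), and 7 of 8 lay above 0, beside 6111 of all 11841 genes tested. The median log2 ratio to the controls was 0.11, 0.54 and -0.21 in CFIm25 KO 1, 2 and 3 (0.00 in each over all genes). CFIm25 KO 2 was the highest library in 5 of the 8, beside 24.9% of all genes. Among them ZIC2 was at 78.7, 94.6 and 35.9 CPM in CFIm25 KO 1, 2 and 3 against 49.1 and 34.1 CPM in control. IRX3 had 39.3, 62.0 and 48.8 CPM in CFIm25 KO 1, 2 and 3 against 40.8 and 43.9 CPM in control. The list name is a label for the set chosen, and some of its genes, IRX3 and TLE1 among them, are not particular to the forebrain. TLE1 was lowest in CFIm25 KO 2, with 47.0, 44.2 and 56.2 CPM in CFIm25 KO 1, 2 and 3 against 48.3 and 45.2 CPM in control. OTX1, named after its values were seen, was highest in CFIm25 KO 3. It had 2.24, 5.07 and 8.03 CPM in CFIm25 KO 1, 2 and 3 against 2.08 and 4.69 CPM in control. The only member of this list with a 4-fold spread, EMX1, a telencephalic homeobox gene chosen here after its values were seen, had 9.95, 15.2 and 3.21 CPM in CFIm25 KO 1, 2 and 3 against 6.24 and 4.69 CPM in control, the same order as OTX2.

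Progenitor and cytoskeletal genes varied less than MAP2. Of 20 neural progenitor genes 12 were tested, 0 were called, and CFIm25 KO 2 was the highest library in 2, with median log2 ratios of 0.06, -0.10 and 0.19 in CFIm25 KO 1, 2 and 3. SOX4 had 214, 162 and 332 CPM in CFIm25 KO 1, 2 and 3 against 159 and 181 CPM in control, highest in CFIm25 KO 3. Of 24 neuronal cytoskeleton genes 16 were tested, 0 were called, and 0 had a 4-fold spread, with CFIm25 KO 2 the highest library in 6. TUBB2B, the one with the most reads, had 3213, 2879 and 4299 CPM in CFIm25 KO 1, 2 and 3 against 3166 and 4034 CPM in control, and STMN1 had 1430, 1637 and 1130 CPM in CFIm25 KO against 1113 and 1216 CPM in control.

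Genes of the signals that FRZB and CYP26A1 act on differed from gene to gene. Of 17 WNT antagonists 4 were tested and 0 were called, with a median log2 ratio of 0.17, -0.18 and -0.20 in CFIm25 KO 1, 2 and 3. SFRP1 had 184, 316 and 83.7 CPM in CFIm25 KO 1, 2 and 3 against 146 and 141 CPM in control, the order of OTX2, whereas SFRP2 had 68.7, 54.0 and 103 CPM in CFIm25 KO against 117 and 112 CPM in control. Of 14 WNT target genes 6 were tested and 0 were called, and CFIm25 KO 2 was the highest in 0 of them. The one with the most reads, CCND1, had 544, 448 and 522 CPM in CFIm25 KO 1, 2 and 3 against 450 and 445 CPM in control. Of 23 retinoic acid pathway genes 12 were tested and 0 were called. A 4-fold spread was seen in 3 of them, beside 3.67% of all genes tested. The 3 were ALDH1A3, RDH10 and CRABP2, named after their values were seen. CRABP2, a carrier of retinoic acid, had 9.25, 22.3 and 3.81 CPM in CFIm25 KO 1, 2 and 3 against 8.11 and 6.82 CPM in control. ALDH1A3, which makes retinoic acid, was lowest in CFIm25 KO 2, with 2.66, 0.818 and 3.61 CPM in CFIm25 KO 1, 2 and 3 against 3.95 and 1.49 CPM in control. These values rest on few reads, 19, 5 and 18 in CFIm25 KO 1, 2 and 3 against 19 and 7 in control. The spread of RDH10, which makes the precursor retinaldehyde, came from control 2, with 2.66, 2.78 and 2.41 CPM in CFIm25 KO 1, 2 and 3 against 3.12 and 0.426 CPM in control. RDH10 had only 2 reads in control 2. Of 17 BMP and Nodal genes 12 were tested and 0 were called.

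**Figure D5:**
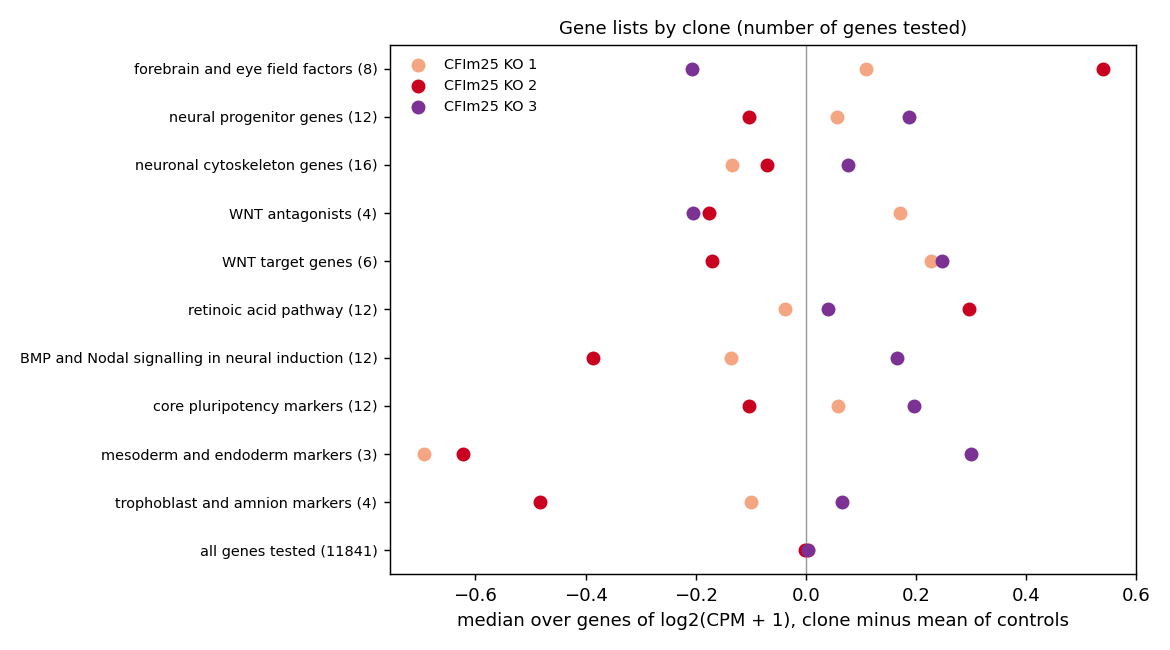
Median over the tested genes of each list of log2(CPM + 1) in CFIm25 KO 1, 2 and 3 minus the mean of the controls, for lists with at least 3 genes tested. The forebrain and eye field list is at 0.54 in CFIm25 KO 2 and -0.21 in CFIm25 KO 3, and all genes tested lie at 0.00.

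Markers of the labelled cell type were present in every library. The 12 core pluripotency markers summed to 7913 to 8303 CPM in CFIm25 KO and 6553 to 8265 CPM in control, and POU5F1 had 214, 208 and 199 CPM in CFIm25 KO 1, 2 and 3 against 174 and 202 CPM in control. The median log2 ratio of the list was 0.06, -0.10 and 0.20 in CFIm25 KO 1, 2 and 3. Of the 12, 1 was called: ZFP42, a pluripotency-associated zinc finger gene, was lower in CFIm25 KO, with 0, 0 and 1 reads against 42 and 44 in control (edgeR adjusted p = 0.000829), in every clone alike and unlike SIX3. For other cell types, 1 of 15 midbrain, hindbrain and spinal cord markers had a site, IRX1. It had 9.81, 18.5 and 1.20 CPM in CFIm25 KO 1, 2 and 3 against 3.54 and 4.05 CPM in control, the order of OTX2. The order of OTX2 was thus not particular to the forebrain list. A site was also found for 1 of 10 neural crest markers (ETS1), 3 of 14 mesoderm and endoderm markers and 4 of 10 trophoblast and amnion markers. Summed levels of the last 2 lists were 16.7 to 46.3 CPM in CFIm25 KO and 38.3 to 39.4 CPM in control for mesoderm and endoderm, and 336 to 668 CPM in CFIm25 KO and 565 to 613 CPM in control for trophoblast and amnion, with CFIm25 KO 2 lowest in both. The second sum was mostly KRT18 (307 CPM in CFIm25 KO 2, 603 CPM in CFIm25 KO 3). TFAP2C was also lowest in CFIm25 KO 2 (19.6 CPM), GABRP varied little (5.24 to 6.03 CPM) and KRT7 was highest in CFIm25 KO 2 (4.09 CPM). In the first sum KDR was lowest in CFIm25 KO 2 (11.5 CPM), but PDGFRA and AFP were lowest in CFIm25 KO 1 (1.12 and 1.82 CPM). The part of any change in cell composition in the member levels was not tested.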

How the data were processed

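3' end libraries of poly(A)+ RNA (Lexogen kit, NovaSeq) were made from 3 CFIm25 KO and 2 control lines. The authors mapped the reads with Bowtie2 and clustered their ends into poly(A) sites. The deposited table gives the raw read count of every site in each library, and RPM values, for which the authors divided the counts by a total per library. It also holds their summed RPM, and the authors' own fold change and p-value per site, which were not used. The labels name hg19, but the positions match GRCh38 and are given as such.

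Counts were summed per gene and compared by the robust, two-sided quasi-likelihood F test of edgeR 4.0.16 under R 4.3.3, after filterByExpr and TMM scaling, with Benjamini-Hochberg adjustment at 0.05. Site use was tested with diffSpliceDGE on the 2 sites of highest mean RPM of a gene, each with at least 5% of their sum. Both were tested on simulated data. Standard errors come from the fold change and the F statistic. Intervals are exact (Clopper-Pearson based) for ratios and Wilson for shares, at 95%. Promoters and gene ends came from RefSeq. Libraries of each group are separate clones, each with 1 library. The p-values are therefore set against the spread between libraries, in which clone, culture and library preparation cannot be told apart. The 8 genes and the gene lists were chosen with earlier results of these data known. Non-member genes were named by rule: the 5 nearest profiles, the 10 furthest above the rest in CFIm25 KO 2, genes within 1 Mb of SIX3 or OTX2, and called genes or up to 4 of the highest mean CPM per list. Alternatives were the DESeq2 1.42.0 size factors and test, library totals, no count filter, 3' UTR sites only, a replicate block, a 10% site minimum and leaving out each library. A gene that this rule names is not reported here.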

Additional observations from a re-analysis of the deposited data

Results flagged for a closer look

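The site that lies 804 bases past the last OTX2 site and carries no gene name is outside the gene sums used for every level and fold change of OTX2 other than those stated to include it. Its mean in CFIm25 KO exceeded that in control. It averaged 15.0 CPM in CFIm25 KO and 3.88 CPM in control, a ratio of 3.87. CFIm25 KO 2 alone had 39.3 CPM, whereas CFIm25 KO 1 and 3 had 4.35 and 1.40 CPM and control 1 and 2 had 4.99 and 2.77 CPM, so the excess rests on CFIm25 KO 2.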

How the results depend on the processing

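Across 8 fold changes and the alternatives tried, 79 values moved by less than the spread between libraries, 2 by more and none turned its sign. The 2 came from leaving out a library. The spread was each gene's own pooled SD of log2 levels, for example 1.46 for OTX2 and 2.10 for CYP26A1. CFIm25 KO 2 is part of that SD, so large moves can stay within it. Without CFIm25 KO 2, OTX2 fell from 1.36 to 0.25 and CYP26A1 from 3.14 to 1.27, and both are among the 79. The ranges over the fits without 1 library were 5.24 to 5.96 for SIX3, 4.56 to 6.80 for LINC01833, 0.25 to 1.85 for OTX2, 0.28 to 0.47 for NES, 0.34 to 2.51 for MAP2, 0.03 to 0.46 for TUBB3, 1.27 to 3.67 for CYP26A1 and 3.38 to 4.01 for FRZB. For 7 values no fit was possible. SIX3, LINC01833 and FRZB fell under the count filter without CFIm25 KO 1 and without CFIm25 KO 2, and LINC01833 has no 3' UTR site. The ranges of SIX3, LINC01833 and FRZB therefore leave out the fit without CFIm25 KO 2, in which OTX2, MAP2 and CYP26A1 had their lowest values. Those ranges do not show how SIX3, LINC01833 and FRZB depend on that library. The count of called genes was 7, and it was 2 to 123 without 1 library (3 without CFIm25 KO 1, 12 without CFIm25 KO 2, 123 without CFIm25 KO 3, 2 without control 2) and 26 with DESeq2. A replicate block called 634 of the 11841 genes tested, SIX3, LINC01833 and CYP26A1 among them. No control shares the number of CFIm25 KO 3, so in that fit this library added nothing to the comparison. CFIm25 KO 3 was at or below the level of the controls in these genes, which were selected on their levels, so nothing is read from their calls. The replicate numbers do not pair the samples: the deviations of same-numbered libraries correlated at 0.06 and 0.04 over 2 pairs, and the block leaves little to estimate the spread from. Genes with a 4-fold spread numbered 435, and 218 to 531 without 1 library (218 without CFIm25 KO 2). Site pairs called numbered 9, 3 with a 10% minimum and 1 to 34 without 1 library (5 without CFIm25 KO 1, 1 without CFIm25 KO 2, 34 without CFIm25 KO 3). The cause of these moves was not tested.

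Depth limits the low members: SIX3, LINC01833 and FRZB rest on 11 control reads or fewer, and each clone has 1 library.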

Other observations

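Some BMP and Nodal genes differed between the clones. Of the 12 tested BMP and Nodal genes, 4 had a 4-fold spread, beside 3.67% of all genes tested. They were BMP4, NODAL, LEFTY2 and GDF3, named after their values were seen. NODAL, a ligand that keeps embryonic stem cells from neural differentiation, had 8.41, 2.62 and 13.8 CPM in CFIm25 KO 1, 2 and 3 against 9.57 and 8.31 CPM in control. GDF3, a ligand of the same pathway, had 3.08, 1.31 and 9.83 CPM in CFIm25 KO 1, 2 and 3 against 3.12 and 4.90 CPM in control, and LEFTY2, an inhibitor of it, had 3.65, 1.80 and 8.23 CPM against 2.08 and 2.98 CPM. In these 3, CFIm25 KO 2 was the lowest library and CFIm25 KO 3 the highest, whereas OTX2 and MAP2 were highest in CFIm25 KO 2 and lowest in CFIm25 KO 3, and edgeR called 0 of the 12 genes. Reads were few: in CFIm25 KO 2, LEFTY2 had 11 reads against 10 in control 1, and GDF3 had 8. The other genes of the list did not all share this: BMP4 was highest in CFIm25 KO 2, and TDGF1, a co-receptor of Nodal, had 568, 370 and 432 CPM in CFIm25 KO 1, 2 and 3 against 509 and 459 CPM in control.

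LHX5, a forebrain homeobox gene that did not pass the count filter and was named after its values were seen, had 7, 45 and 1 reads in CFIm25 KO 1, 2 and 3 against 1 and 0 in control. The order of the clones was that of SIX3.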
